A study of Homo sapiens with 27 samples.

Results

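The genes described here are 10 feedback targets of the WNT pathway, AXIN2, NKD1, LGR5, ZNRF3, RNF43, NOTUM, TCF7, LEF1, SP5 and TBX3. They were chosen as the rows of both deposited expression tables whose symbol is one of these names, so they are 10 of 58735 genes. Expression had been measured by RNA sequencing of total RNA in 27 libraries of HuH-7 and JHH-7, cell lines from human liver cancers that were grown in serum. All cells carried CRISPR guides. The control cells carried a non-targeting guide (sgNTC) and have the genotype WT in the labels. The groups sgKLB and sgFGFR4 carried guides against KLB or FGFR4, sgFGFR3/4 against FGFR3 with FGFR4, and sgFGFR1/3/4, in JHH-7 alone, against all 3 receptors, and they are labelled knockouts of these genes. Beta-klotho, the product of KLB, is the co-receptor through which the hormone FGF19 signals by FGFR4 in hepatocytes. Each of the 9 groups holds 3 libraries, called biological replicates in the labels. The comparisons ask whether loss of the co-receptor or of the receptors changes the feedback genes, and whether it does so in both lines. Whether a group is a clone or a pool of edited cells is not given in the sources used here, and neither editing nor protein was measured here.

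In the WNT pathway, secreted WNT proteins bind Frizzled receptors with LRP5 or LRP6, which stops the destruction complex from degrading beta-catenin, and beta-catenin then switches on genes together with the DNA-binding factors of the TCF and LEF family. Many of the genes it switches on act back on the pathway, either as brakes or as amplifiers, and their RNA is widely read as a gauge of pathway activity. In normal liver the pathway is active around the central vein, where it sets the pericentral program of hepatocytes, and mutations that activate beta-catenin are common in liver cancer.

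TCF and LEF factors recognise a short DNA core, searched here as CTTTGA and CTTTGT on both strands. The 300-base promoter windows of RefSeq (GRCh38.p14, 250 bases before to 50 after the start) held 4 of the 10 genes, SP5, TCF7, RNF43 and LEF1, in 6 windows. The SP5 window is shown because it held the most matches, and one of the 2 TCF7 windows because its gene also changed in JHH-7; capitals mark the matches on either strand.
SP5 promoter, chr2:170715087-170715386, plus strand: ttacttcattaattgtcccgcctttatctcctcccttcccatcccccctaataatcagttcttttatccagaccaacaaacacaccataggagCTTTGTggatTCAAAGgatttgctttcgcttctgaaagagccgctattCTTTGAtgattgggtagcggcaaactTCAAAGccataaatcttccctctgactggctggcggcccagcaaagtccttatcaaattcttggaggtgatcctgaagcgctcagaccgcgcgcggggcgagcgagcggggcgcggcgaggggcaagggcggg
TCF7 promoter, chr5:134123368-134123667, plus strand: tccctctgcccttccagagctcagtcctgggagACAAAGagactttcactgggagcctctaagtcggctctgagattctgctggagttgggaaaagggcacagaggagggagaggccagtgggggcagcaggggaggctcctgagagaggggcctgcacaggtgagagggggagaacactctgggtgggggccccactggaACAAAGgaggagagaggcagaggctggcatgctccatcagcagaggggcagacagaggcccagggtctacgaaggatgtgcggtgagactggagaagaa
The SP5 window held 4 matches, 3 of CTTTGA and 1 of CTTTGT, and the TCF7 window held 2 of CTTTGT. The other TCF7 window and the LEF1 window held 0, and each of the 2 RNF43 windows held 1. Among 35116 promoter windows of this length, 26.2% held at least 1 match, 5.33% at least 2 and 0.111% at least 4. A match describes these letters only and is no evidence of binding.

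Levels are given in FPKM (fragments per kilobase and per 1e+06 fragments), a unit per length that allows genes to be compared. Changes are differences of log2(FPKM + 1) with the standard error (SE), a scale that understates changes of low genes, and adjusted p-values come from limma with Benjamini-Hochberg adjustment over all genes of the comparison. A gene was called when its adjusted p was below 0.05. Estimated depth was 14.4 to 27.8 M fragments (M, 1e+06) per library. All 9 hepatocyte lineage markers, ALB and AFP among them, reached 1 FPKM in every library, and the targeted genes were lower in their own knockouts by 0.75 to 1.44 on the log2 scale, with their transcripts still detectable. A lower RNA level in bulk cells cannot be split into fewer expressing cells and less RNA per cell. The p-values measure the spread between these libraries only.

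The control cells of the lines differed in which feedback genes they expressed. AXIN2 (ENSG00000168646; GRCh38 chromosome 17, 65528563 to 65561647, minus strand), the scaffold that rebuilds the destruction complex, was at 1.52, 1.43 and 2.01 FPKM in HuH-7 sgNTC and at 3.47, 3.58 and 3.85 in JHH-7 sgNTC. ZNRF3 (ENSG00000183579; chromosome 22, 28883592 to 29057487, plus strand), a membrane ubiquitin ligase that removes Frizzled receptors, was at 7.07, 8.55 and 8.25 FPKM in HuH-7 and 17.2, 16.4 and 17.3 in JHH-7. SP5 (ENSG00000204335; chromosome 2, 170715351 to 170718078, plus strand), a zinc finger factor that restrains other WNT targets, was at 17.9, 15.9 and 53.6 FPKM in HuH-7 and 1.68, 1.22 and 1.16 in JHH-7. For all 3 genes the lines did not overlap, with AXIN2 and ZNRF3 higher in JHH-7 and SP5 higher in HuH-7, where 1 library lay far above the others.

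Of the 8 genes that passed the filter on low values in both lines, 3 were higher in JHH-7 sgNTC (AXIN2, ZNRF3 and RNF43) and 2 lower (SP5 and TBX3), where 64% of the 16731 genes tested over both lines were called, 35% higher and 28.9% lower. The difference was 0.81 ± 0.135 for AXIN2 (adjusted p 1.64e-05), 1.01 ± 0.080 for ZNRF3 (1.92e-10) and -3.47 ± 0.344 for SP5 (7.75e-09). NKD1 and LEF1 passed the filter through JHH-7 alone, so their levels are given as a description. LEF1 (ENSG00000138795; chromosome 4, 108047545 to 108168956, minus strand), a DNA-binding partner of beta-catenin, had a mean of 2.75 ± 0.408 FPKM (SD, n = 3) in JHH-7 and 0.273 ± 0.257 in HuH-7. NKD1 (ENSG00000140807; chromosome 16, 50548330 to 50649249, plus strand), which binds Dishevelled and dampens the signal, had a mean of 2.38 ± 1.27 FPKM in JHH-7 and reached no more than 0.03 FPKM in any HuH-7 library. TBX3 (ENSG00000135111; chromosome 12, 114670254 to 114684164, minus strand), a T-box repressor, was at 10.3 ± 1.16 FPKM in JHH-7 and 19.6 ± 1.49 in HuH-7 (adjusted p 4.11e-07). RNF43 (ENSG00000108375; chromosome 17, 58352500 to 58417595, minus strand), the paralog of ZNRF3, was at 14.6 ± 3.46 FPKM in JHH-7 and 10.3 ± 2.08 in HuH-7, a difference of 0.46 (adjusted p 0.0204) that lost its call when the 2 groups were fitted alone (0.0888), under quantile normalization (0.113), without HuH-7 sgNTC library 2 (0.0728) or 3 (0.0921) and without JHH-7 sgNTC library 1 (0.141) or 3 (0.0537). RNF43 shares 143 exonic bases with SUPT4H1 and 4326 with AC004687.2, both on the same strand. SUPT4H1 had a mean of 58.4 FPKM in JHH-7 and 119 in HuH-7 (difference -1.02, adjusted p 3.88e-07), and AC004687.2 of 0.2 and 0.0733. Their part in the RNF43 values was not tested. LGR5, NOTUM and TCF7 were not called. The tables were deposited per line, so levels set across them carry that limit.

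**Figure D1:**
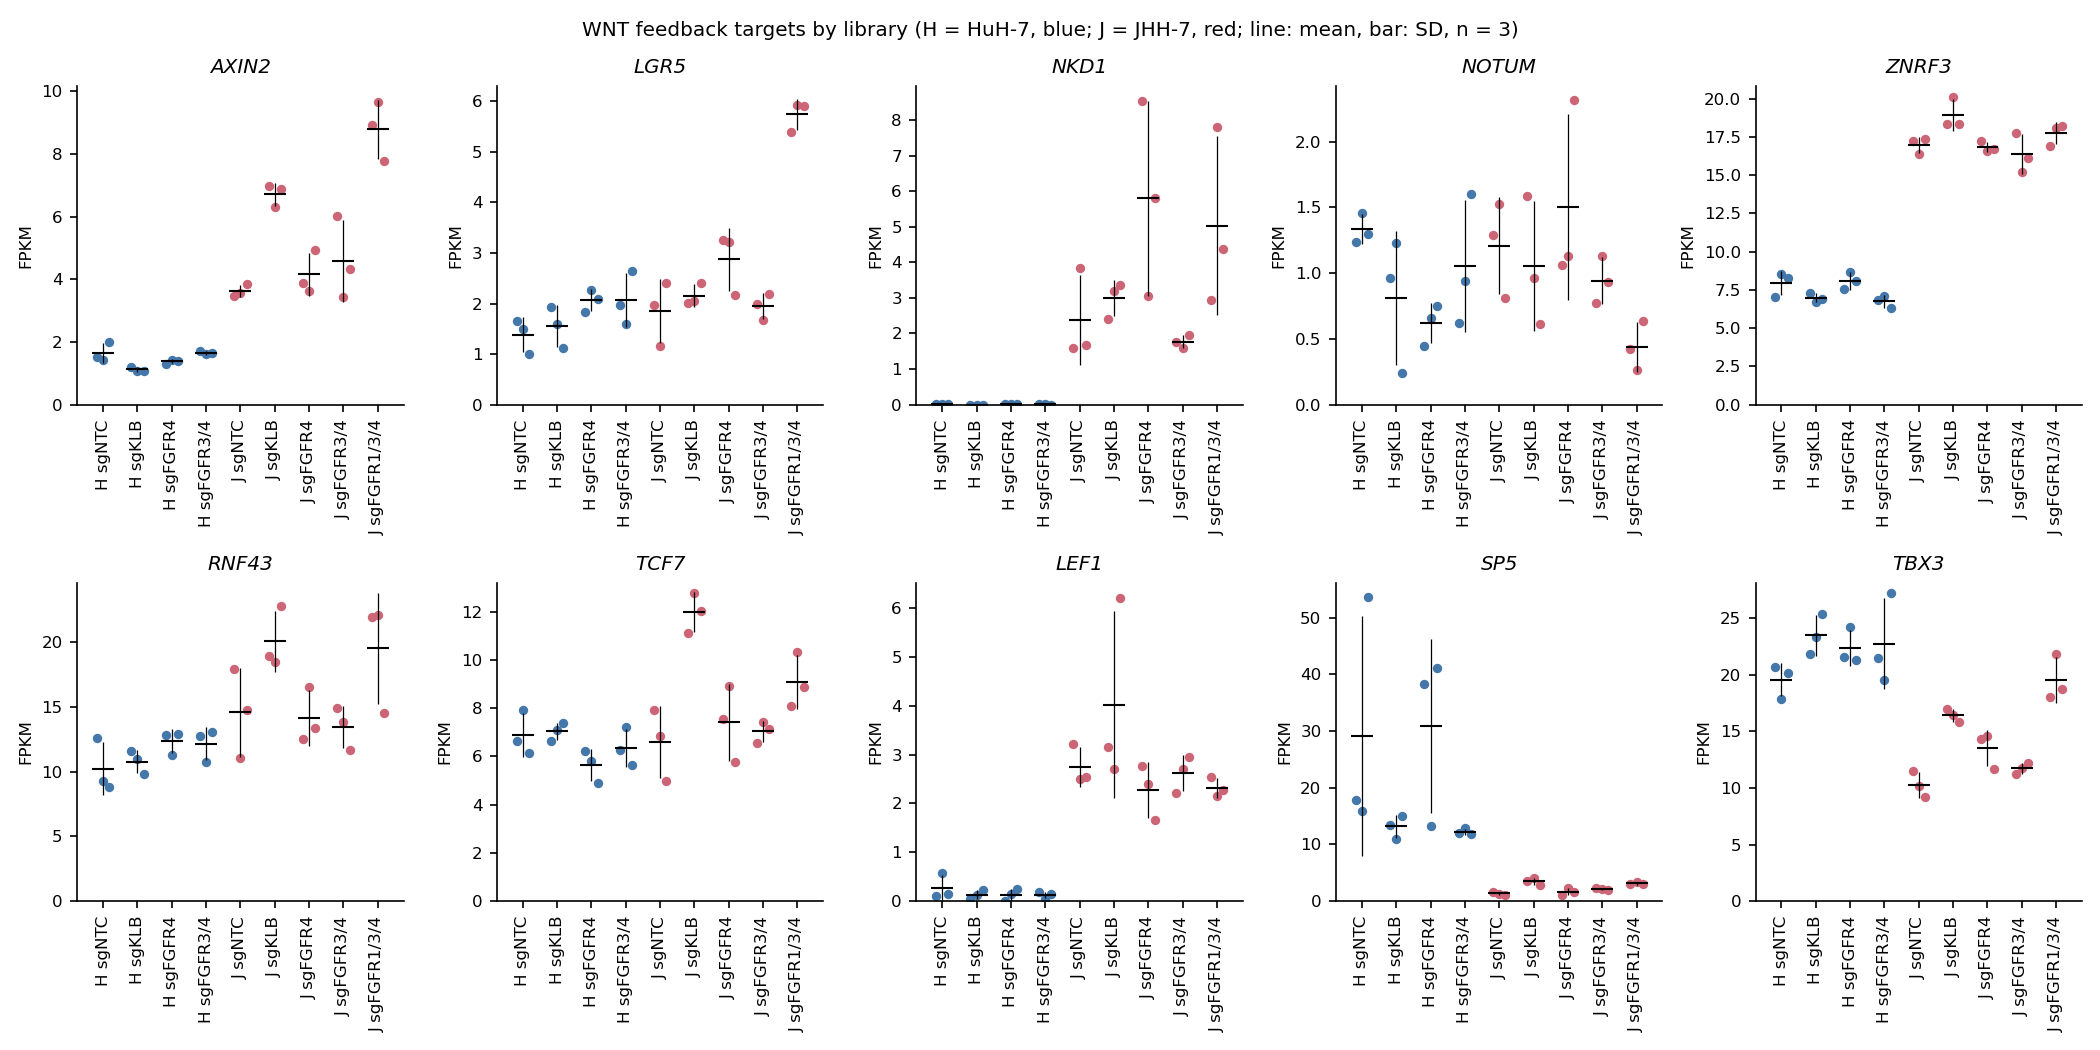
FPKM (vertical axis, linear, from 0, a scale of its own per gene) of the 10 feedback genes in every library of the 9 groups (horizontal axis); points are libraries and black lines are group means (n = 3). In JHH-7, AXIN2, SP5 and TBX3 of sgKLB and sgFGFR1/3/4 lie above all sgNTC libraries, LGR5 stands out in sgFGFR1/3/4 alone, and SP5 of HuH-7 has single libraries at 53.6, 38.3 and 41.1 FPKM.

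Among the intracellular brakes in JHH-7, AXIN2 was higher with loss of the co-receptor and with loss of all 3 receptors. It was at 6.98, 6.30 and 6.88 FPKM in sgKLB, 3.89, 3.64 and 4.95 in sgFGFR4, 6.02, 3.43 and 4.32 in sgFGFR3/4, and 8.93, 9.66 and 7.77 in sgFGFR1/3/4. All sgKLB and sgFGFR1/3/4 libraries lay above the highest sgNTC library, at 3.85, while those of sgFGFR4 and sgFGFR3/4 overlapped sgNTC. From the sgNTC mean of 3.63 ± 0.196 FPKM (SD, n = 3), AXIN2 rose 1.85-fold in sgKLB (log2 change 0.74 ± 0.157, 95% interval 0.40 to 1.07, adjusted p 0.00232) and 2.42-fold in sgFGFR1/3/4 (1.07 ± 0.157, 0.74 to 1.41, adjusted p 0.000102). In sgFGFR3/4 its change was 0.25 (adjusted p 0.491).

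NKD1 varied widely between JHH-7 libraries of one group. Its levels were 1.60, 3.85 and 1.69 FPKM in sgNTC, 2.41, 3.19 and 3.37 in sgKLB, 8.52, 3.06 and 5.81 in sgFGFR4, 1.76, 1.59 and 1.95 in sgFGFR3/4, and 2.93, 7.80 and 4.37 in sgFGFR1/3/4. Library 2 of sgNTC stood above its group, so that sgFGFR4 and sgFGFR1/3/4 overlapped the controls. The changes were 0.99 ± 0.327 in sgFGFR4 (adjusted p 0.115) and 0.82 ± 0.327 in sgFGFR1/3/4 (adjusted p 0.0607), neither of them called. The change in sgFGFR1/3/4 was called without sgNTC library 2 (0.0221) or sgFGFR1/3/4 library 1 (0.026), with TPM scaling (0.0481) and with a correction for gene length and GC content (0.0152).

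LGR5 (ENSG00000139292; chromosome 12, 71439770 to 71586310, plus strand) is the receptor for R-spondins and marks WNT-responsive stem cells; it amplifies the signal by holding back ZNRF3 and RNF43. In JHH-7 it was at 1.97, 1.17 and 2.41 FPKM in sgNTC and at 5.39, 5.93 and 5.91 in sgFGFR1/3/4. The other knockouts gave 2.01, 2.05 and 2.41 FPKM in sgKLB, 3.26, 3.21 and 2.16 in sgFGFR4, and 1.99, 1.68 and 2.19 in sgFGFR3/4. All sgFGFR1/3/4 libraries lay above every other JHH-7 library, and the other 4 groups overlapped. LGR5 rose 3.1-fold in sgFGFR1/3/4 (log2 change 1.27 ± 0.174, 95% interval 0.89 to 1.64, adjusted p 6.11e-05) and was not called in the other knockouts, the next difference being 0.46 in sgFGFR4 (adjusted p 0.172).

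The ubiquitin ligases that take Frizzled off the membrane were not called in any JHH-7 knockout. ZNRF3 stayed between 15.2 and 20.1 FPKM in all 15 libraries. All sgKLB libraries of ZNRF3, at 18.34, 20.14 and 18.35 FPKM, lay above the highest sgNTC library, at 17.34. RNF43 was at 17.95, 11.04 and 14.8 FPKM in sgNTC, 18.99, 18.5 and 22.8 in sgKLB, and 21.9, 22.1 and 14.6 in sgFGFR1/3/4. Its sgKLB libraries all lay above sgNTC, and 1 library of sgFGFR1/3/4 lay within it. The changes were 0.45 ± 0.183 (95% interval 0.06 to 0.84, adjusted p 0.0737) in sgKLB and 0.40 (adjusted p 0.099) in sgFGFR1/3/4. Without sgNTC library 1, the highest control, they were called, with adjusted p of 0.0303 and 0.0369, and that in sgFGFR1/3/4 also without its library 3 (0.022). The length and GC correction gave RNF43 an adjusted p of 0.0377 there and ZNRF3 a change of 0.31 (adjusted p 0.00492).

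NOTUM (ENSG00000185269; chromosome 17, 81952507 to 81961840, minus strand), a secreted enzyme that strips the lipid WNT proteins need, was low in both lines, reaching 1 FPKM in 7 of 15 JHH-7 and 5 of 12 HuH-7 libraries. In JHH-7 it was at 1.29, 1.53 and 0.81 FPKM in sgNTC and 0.42, 0.26 and 0.64 in sgFGFR1/3/4. These groups did not overlap, and NOTUM had the lowest change of the 10 there, at -0.61 ± 0.238 (95% interval -1.12 to -0.10, adjusted p 0.0536). With a pseudocount of 0.1 the change was -1.30 with an adjusted p of 0.0287, under quantile normalization the adjusted p was 0.0269, and without sgNTC library 3 it was 0.0379.

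Of the transcription factors among the targets, SP5 and TBX3 were higher in the same knockouts as AXIN2. SP5 in JHH-7 was at 1.68, 1.22 and 1.16 FPKM in sgNTC, 3.52, 4.03 and 2.92 in sgKLB, 1.11, 2.27 and 1.69 in sgFGFR4, 2.26, 2.14 and 2.00 in sgFGFR3/4, and 3.07, 3.45 and 2.99 in sgFGFR1/3/4. Every library of sgKLB, sgFGFR3/4 and sgFGFR1/3/4 lay above the controls. SP5 rose 2.58-fold in sgKLB (0.93 ± 0.169, adjusted p 0.000666) and 2.34-fold in sgFGFR1/3/4 (0.83 ± 0.169, adjusted p 0.00137), and its change of 0.42 in sgFGFR3/4 was not called (adjusted p 0.23).

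TBX3 was at 11.5, 10.2 and 9.19 FPKM in sgNTC, 16.95, 16.4 and 15.9 in sgKLB, 14.4, 14.6 and 11.7 in sgFGFR4, 11.3, 11.7 and 12.2 in sgFGFR3/4, and 18.03, 21.9 and 18.8 in sgFGFR1/3/4. Only sgFGFR3/4 overlapped the controls, and sgFGFR1/3/4 held the 3 highest libraries. TBX3 rose 1.6-fold in sgKLB (0.63 ± 0.108, adjusted p 0.000419) and 1.9-fold in sgFGFR1/3/4 (0.87 ± 0.108, adjusted p 2.7e-05). In sgFGFR4 its change was 0.37 ± 0.108 (adjusted p 0.076), and without sgFGFR4 library 3 it was 0.46 and was called (adjusted p 0.0278).

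TCF7 (ENSG00000081059; chromosome 5, 134114711 to 134151865, plus strand) encodes TCF1, a DNA-binding partner of beta-catenin. In JHH-7 it was at 7.93, 6.86 and 4.99 FPKM in sgNTC, 11.1, 12.8 and 12.02 in sgKLB, and 8.11, 10.3 and 8.86 in sgFGFR1/3/4. Both knockouts lay above all control libraries. TCF7 rose 1.82-fold in sgKLB (0.79 ± 0.160, adjusted p 0.0016). In sgFGFR1/3/4 it rose by 0.42 ± 0.160 with an adjusted p of 0.0483, a call lost without sgNTC library 2 (0.0731) or 3 (0.211), without sgFGFR1/3/4 library 1 (0.0506), 2 (0.167) or 3 (0.0884), under quantile normalization (0.069), with no filter (0.107) and with the 2 groups fitted alone (0.0838). TCF7 shares 210 exonic bases with SKP1 on the opposite strand, and without a stated strand setting their reads cannot be told apart there. SKP1, which had a mean of 259 FPKM in JHH-7 sgNTC, rose by 0.45 ± 0.078 in sgKLB (adjusted p 0.000429) and by 0.92 ± 0.078 in sgFGFR1/3/4 (adjusted p 8.05e-07); its part in the TCF7 values was not tested. LEF1, the relative of TCF7, had JHH-7 means between 2.27 and 4.02 FPKM, with 1 sgKLB library at 6.21, and was not called in any knockout.

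Counted over the list, 4 of the 10 genes rose in JHH-7 sgKLB, where 31.9% of the 14987 genes tested were called and 15.5% were called higher. In sgFGFR1/3/4 it was 5 of 10, where 39.8% of genes were called and 20.8% called higher. With sgFGFR4 and sgFGFR3/4 the count was 0 of 10 in limma, against 4.25% and 3.53% of all genes, with 3 and 1 of the 10 at an unadjusted p below 0.05. In the order sgKLB, sgFGFR4, sgFGFR3/4, sgFGFR1/3/4, the median change of the 10 was 0.41, 0.15, 0.01 and 0.62, and that of all genes was -0.02, 0.01, -0.00 and 0.03. In the same order, 6, 1, 1 and 6 of the 10 genes had libraries that did not overlap the controls, as did 42.8%, 22.4%, 18.3% and 53.2% of all genes. These comparisons share the sgNTC libraries. The summed FPKM of the hepatocyte lineage markers was 14300 to 16400 in sgNTC. It was 31100 to 31800 with KLB loss, 18400 to 19600 with FGFR4 loss, 19200 to 21600 with FGFR3/4 loss and 22500 to 23800 with triple loss. The sum was thus above sgNTC in every knockout and highest with KLB loss, whereas the median change of the 10 was highest with triple loss. Its part in the results was not tested.

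**Figure D2:**
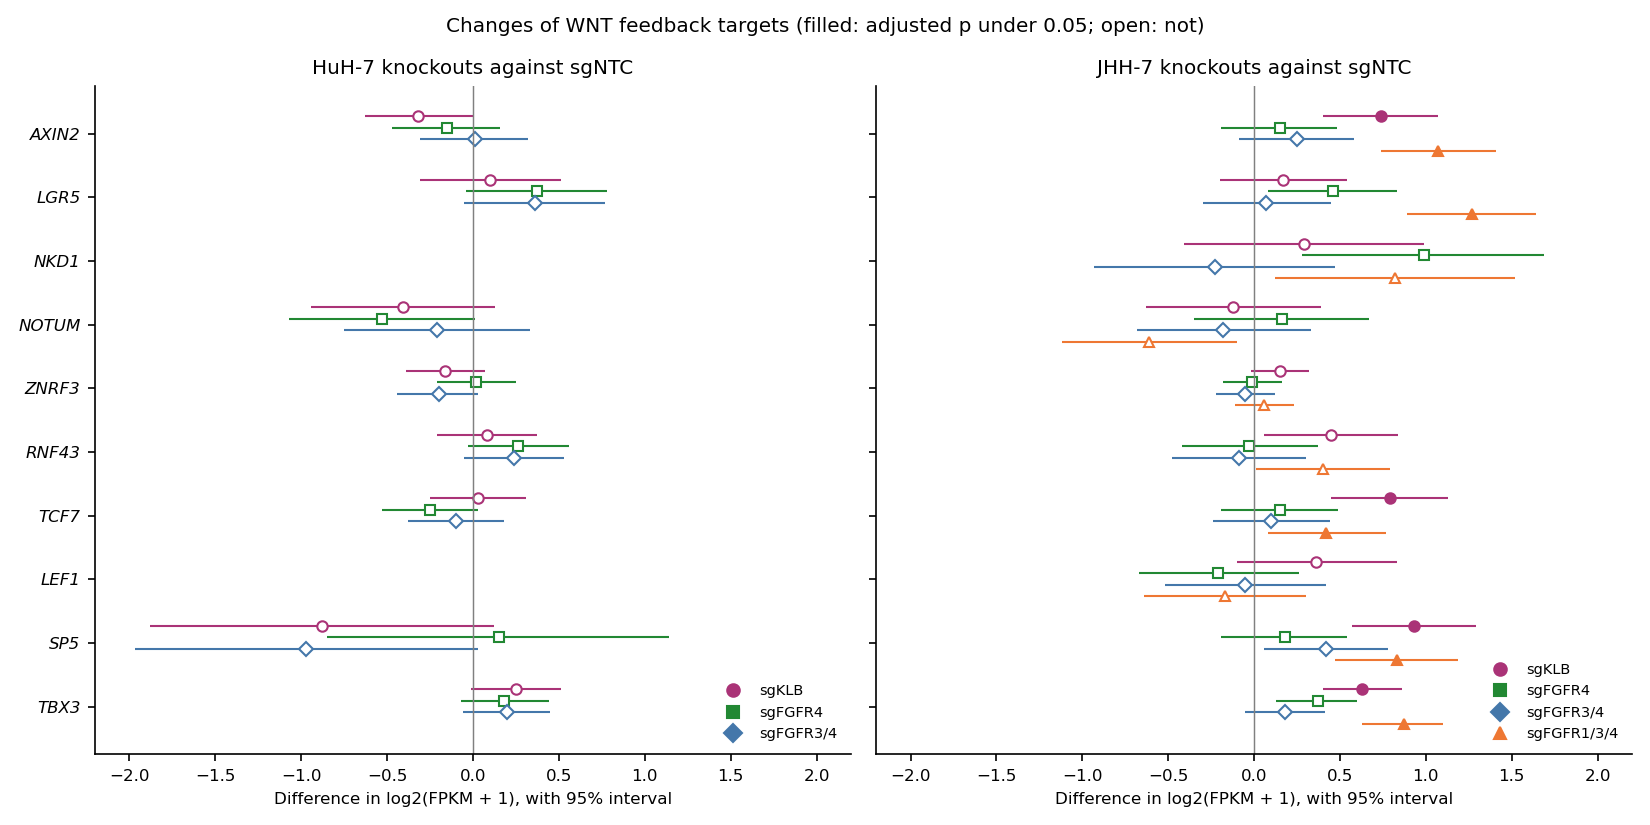
Change of each feedback gene against sgNTC of its line on the log2(FPKM + 1) scale (horizontal axis), with 95% intervals, for each knockout in HuH-7 (left) and JHH-7 (right); filled points passed an adjusted p of 0.05. Filled points occur in JHH-7 sgKLB (4 genes) and sgFGFR1/3/4 (5 genes), and LGR5 of sgFGFR1/3/4 lies farthest to the right at 1.27.

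The JHH-7 knockouts were also compared with each other. In sgFGFR1/3/4 against sgFGFR3/4, not only FGFR1 (-0.63, adjusted p 0.00537) but also FGFR3 (-0.33, 0.00177) and FGFR4 (-0.32, 0.00945) were lower. FGFR2, against which no guide was named, was higher (0.55, 0.00377). The part of these receptor differences in the results was not tested. Against sgFGFR3/4, sgFGFR1/3/4 had 4 genes higher, where 32.2% of all genes were called and 16.8% called higher: AXIN2 by 0.83 ± 0.157 (adjusted p 0.00128), LGR5 by 1.19 (0.000196), TBX3 by 0.69 (0.000345) and NKD1 by 1.05 ± 0.327 (0.0248). The NKD1 call was lost with no filter (0.0699), without sgFGFR3/4 library 1 (0.0624) or 2 (0.0575) and without sgFGFR1/3/4 library 2 (0.121) or 3 (0.0514). SP5, at 0.41 (adjusted p 0.0771), RNF43, at 0.49 (0.055), and TCF7, at 0.32 (0.138), were not called, but all 3 were with the length and GC correction, with adjusted p of 0.018, 0.0247 and 0.0269, as was ZNRF3 (0.00503). RNF43 was called without sgFGFR1/3/4 library 3 as well (0.0149). Adding FGFR3 to FGFR4 loss gave 0 calls of 10 in limma, 2 of them at an unadjusted p below 0.05, where 0.0133% of all genes were called; NKD1 was at -1.21 (adjusted p 0.652), with groups that did not overlap.

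The co-receptor and triple receptor knockouts differed in 1 of the 10 genes, where 35.7% of all genes were called and 19.7% called lower. LGR5 was lower in sgKLB than in sgFGFR1/3/4 by 1.10 on the log2 scale (-1.10, adjusted p 0.000323). AXIN2 at -0.34 (adjusted p 0.11), TBX3 at -0.24 (0.106), TCF7 at 0.37 (0.0904) and LEF1 at 0.53 (0.0705) were not called, which does not show that they were alike; with the length and GC correction AXIN2 was at -0.54 (adjusted p 0.00935). Comparisons of sgKLB with the smaller receptor losses were added after the data had been seen. Against sgFGFR4, where 19.4% of genes were called and 9.27% called higher, 3 genes were higher in sgKLB: AXIN2 by 0.59 (adjusted p 0.0168), TCF7 by 0.64 (0.0117) and SP5 by 0.75 (0.00585). Against sgFGFR3/4, where 17.1% were called and 8.4% called higher, 3 were higher: AXIN2 by 0.49 (0.0452), TCF7 by 0.69 (0.00795) and TBX3 by 0.45 (0.00972). The AXIN2 call against sgFGFR4 was lost without sgKLB library 1 (0.0535) or 3 (0.0508) and without sgFGFR4 library 1 (0.0545) or 2 (0.0717), and the TCF7 call without sgFGFR4 library 3 (0.056). That of AXIN2 against sgFGFR3/4 was lost without sgKLB library 1 (0.117), 2 (0.0719) or 3 (0.11), without sgFGFR3/4 library 2 (0.18) or 3 (0.121), with the 2 groups alone (0.142), with no filter (0.0999) and under quantile normalization (0.0624). SP5, at 0.51 (adjusted p 0.0517), was called against sgFGFR3/4 without sgKLB library 3 (0.0489).

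In HuH-7, 8 of the 10 genes passed the filter on low values, NKD1 and LEF1 staying below 1 FPKM in all 12 libraries. None of the 8 was called in limma in sgKLB, sgFGFR4 or sgFGFR3/4, where 17.6%, 3.71% and 16.1% of the 14716 genes tested were called. At an unadjusted p below 0.05 there were 1, 0 and 0. Groups did not overlap the controls for 4, 3 and 1 of the 8 genes, against 33.7%, 33.1% and 33% of all genes. Between the knockouts, sgFGFR3/4 against sgFGFR4 and sgKLB against sgFGFR3/4 likewise gave 0 calls in limma, 1 gene each at an unadjusted p below 0.05, where 1.62% and 0.55% of all genes were called. AXIN2 was at 1.20, 1.08 and 1.09 FPKM in sgKLB, all below the 3 controls, a change of -0.32 ± 0.144 (adjusted p 0.162). It was at 1.31, 1.43 and 1.40 FPKM in sgFGFR4 and 1.72, 1.61 and 1.64 in sgFGFR3/4, both overlapping the controls. TBX3 was at 21.8, 23.3 and 25.4 FPKM in sgKLB against 20.7, 17.9 and 20.2 in sgNTC, again without overlap, a change of 0.25 ± 0.117 (adjusted p 0.174).

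SP5 in HuH-7 had wide groups. Besides the sgNTC values of 17.9, 15.9 and 53.6 FPKM it was at 13.5, 11.03 and 15.1 in sgKLB, 38.3, 13.3 and 41.1 in sgFGFR4, and 11.98, 12.9 and 11.9 in sgFGFR3/4. The sgKLB and sgFGFR3/4 libraries all lay below the lowest control, but with an SE of 0.454 their changes of -0.88 and -0.97 had adjusted p of 0.223 and 0.166. Without sgNTC library 3 the changes were -0.34 and -0.43, and without sgNTC library 2 they were -1.19 and -1.28, none of them called. LGR5 in HuH-7 had means from 1.38 to 2.07 FPKM, ZNRF3 from 6.76 to 8.09, RNF43 from 10.3 to 12.4, TCF7 from 5.64 to 7.03 and NOTUM from 0.62 to 1.33.

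The line difference of the knockout effects was tested directly. The 10 genes include NKD1 and LEF1, which passed the filter through JHH-7 alone. For sgKLB, 3 of the 10 genes had a higher change in JHH-7 than in HuH-7, where 19.7% of all genes were called and 9.8% called higher: AXIN2 by 1.05 ± 0.191 (adjusted p 0.000302), SP5 by 1.81 ± 0.486 (0.00991) and TCF7 by 0.76 ± 0.206 (0.0105). AXIN2 and SP5 had opposite signs in the lines, with the HuH-7 changes not called, and all 3 differences were called with every single library left out. TBX3, at 0.38 (adjusted p 0.0978), was not shown to differ between the lines. For sgFGFR4 and sgFGFR3/4, 0 of 10 were called in limma, 2 and 1 of them at an unadjusted p below 0.05, against 4.12% and 7.21% of all genes. SP5, at 1.39 for sgFGFR3/4 (adjusted p 0.0871), was called without HuH-7 sgNTC library 2 (0.0438).

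The rest of the pathway was followed in 7 lists of genes. Their counts in JHH-7 stand against 31.9% of all genes called in sgKLB and 39.8% in sgFGFR1/3/4. In sgFGFR4 and in sgFGFR3/4, 10 of 71 genes of the lists were called, against 4.25% and 3.53% of all genes. Of 15 receptor and ligand export genes tested of 19 listed, 3 rose and 3 fell in sgKLB, a share near that of all genes. FZD4, a Frizzled receptor, rose by 1.09 ± 0.101 (adjusted p 1.41e-06) and LGR4, the relative of LGR5, by 0.70 ± 0.117 (0.000319), while LRP6, the WNT co-receptor, fell by 0.62 (-0.62 ± 0.098, adjusted p 0.000203). In sgFGFR1/3/4, too, 3 rose and 3 fell, again near the share of all genes; FZD4 rose by 1.14 (1.29e-06), LGR4 by 0.99 ± 0.117 (1.53e-05), and the co-receptor LRP5 fell by 0.78 (adjusted p 6e-06). LGR4 was at 23.0, 18.7 and 22.8 FPKM in sgNTC, 37.2, 31.8 and 37.8 in sgKLB and 44.3, 43.8 and 43.1 in sgFGFR1/3/4. These 3 groups did not overlap. In sgFGFR4, FZD4 rose by 0.53 (adjusted p 0.01) and LGR4 by 0.44 (0.0475). FZD4 also rose by 0.48 in sgFGFR3/4 (0.0172), where LGR4 was not called. Of 23 WNT and R-spondin ligand genes only 3 passed the filter in JHH-7 and 4 in HuH-7; WNT11, a WNT ligand, rose by 0.76 in sgFGFR1/3/4 of JHH-7 (adjusted p 0.03), a call lost with no filter (0.0502) and without any 1 of the sgNTC libraries or of sgFGFR1/3/4 libraries 1 and 2 (0.0556 to 0.0908).

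Of 6 secreted and membrane inhibitors tested of 14 listed, 5 rose in sgKLB, and 2 rose and 1 fell in sgFGFR1/3/4. Of the 5, DKK1 lost the call with no filter (0.0858) and without sgNTC library 2 (0.127) or sgKLB library 2 (0.09) or 3 (0.0742), and KREMEN2 in 7 alternatives, among them without sgNTC library 1 (0.138) or 3 (0.055) and sgKLB library 2 (0.114) or 3 (0.106). APCDD1, a membrane inhibitor, rose by 0.97 (adjusted p 0.00309) in sgKLB. DKK1, which blocks LRP5 and LRP6 and is itself a WNT target, was at 93.2, 74.8 and 98.7 FPKM in JHH-7 sgNTC and 218, 232 and 209 in sgFGFR1/3/4. These groups did not overlap, and DKK1 rose by 1.30 ± 0.146 (adjusted p 1.04e-05). HuH-7 has no sgFGFR1/3/4 group. In sgKLB, DKK1 rose by 0.44 in JHH-7 (adjusted p 0.0311), the call with the losses given above, and fell in HuH-7. There sgNTC averaged 147 ± 11.3 FPKM and sgKLB 74.9 ± 3.05 (SD, n = 3), a change of -0.96 ± 0.085 (adjusted p 1.83e-05). In sgFGFR3/4 it fell by 0.51 in HuH-7 (adjusted p 0.00311) and was not called in JHH-7, at 0.22 (0.504).

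Among 17 genes of beta-catenin transduction and the destruction complex, 1 rose and 6 fell in JHH-7 sgKLB, where 31.9% of all genes were called, and 1 rose and 8 fell in sgFGFR1/3/4, where 39.8% were. The gene that rose in both was CTNNB1, beta-catenin itself, at 193, 170 and 195 FPKM in sgNTC, 243, 240 and 248 in sgKLB and 258, 276 and 266 in sgFGFR1/3/4. The groups did not overlap; CTNNB1 rose by 0.39 ± 0.063 (adjusted p 0.000241) and 0.52 ± 0.063 (1.95e-05). AXIN1, the constitutive relative of AXIN2, fell by 0.69 (adjusted p 0.000395) in sgKLB and by 0.57 (0.00137) in sgFGFR1/3/4, opposite to AXIN2. CSNK1E, a casein kinase of the pathway, fell by 0.84 (adjusted p 2.56e-07) and 0.68 (2.96e-06), and TNKS, the tankyrase that marks axins for degradation, by 0.64 (0.000971) and 0.89 (5.46e-05). In sgFGFR4, CTNNB1 was also called higher, at 0.25 (adjusted p 0.0389), and AXIN1 lower, at -0.47 (0.0367). CSNK1E was called lower in sgFGFR4, at -0.35 (0.00965), and in sgFGFR3/4, at -0.28 (0.0326).

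Of 14 nuclear partners tested, 2 fell in JHH-7 sgKLB, where 16.4% of all genes were called lower, and 9 in sgFGFR1/3/4, where 19% were. TCF7L2, the main TCF factor of many epithelia, was at 28.7, 28.7 and 28.7 FPKM in sgNTC and 16.9, 17.7 and 20.2 in sgFGFR1/3/4 and fell by 0.63 (-0.63 ± 0.106, adjusted p 0.000323). TCF7L1 fell by 0.54 (0.00075) and BCL9L, a beta-catenin cofactor, by 0.52 (0.000889), the opposite direction to TCF7. With the length and GC correction 4 of the 9 were called lower. In that comparison the change of a gene correlated with its GC content across genes at rho -0.43, as a description. The falls of LRP5, AXIN1, CSNK1E and TNKS in sgFGFR1/3/4 come from the same comparison. The rho was 0.05 for sgKLB against sgNTC, -0.48 for sgFGFR1/3/4 against sgFGFR3/4 and 0.52 for sgKLB against sgFGFR1/3/4. Against sgNTC of HuH-7 it was 0.02 for sgKLB, -0.50 for sgFGFR4 and -0.31 for sgFGFR3/4.

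**Figure D3:**
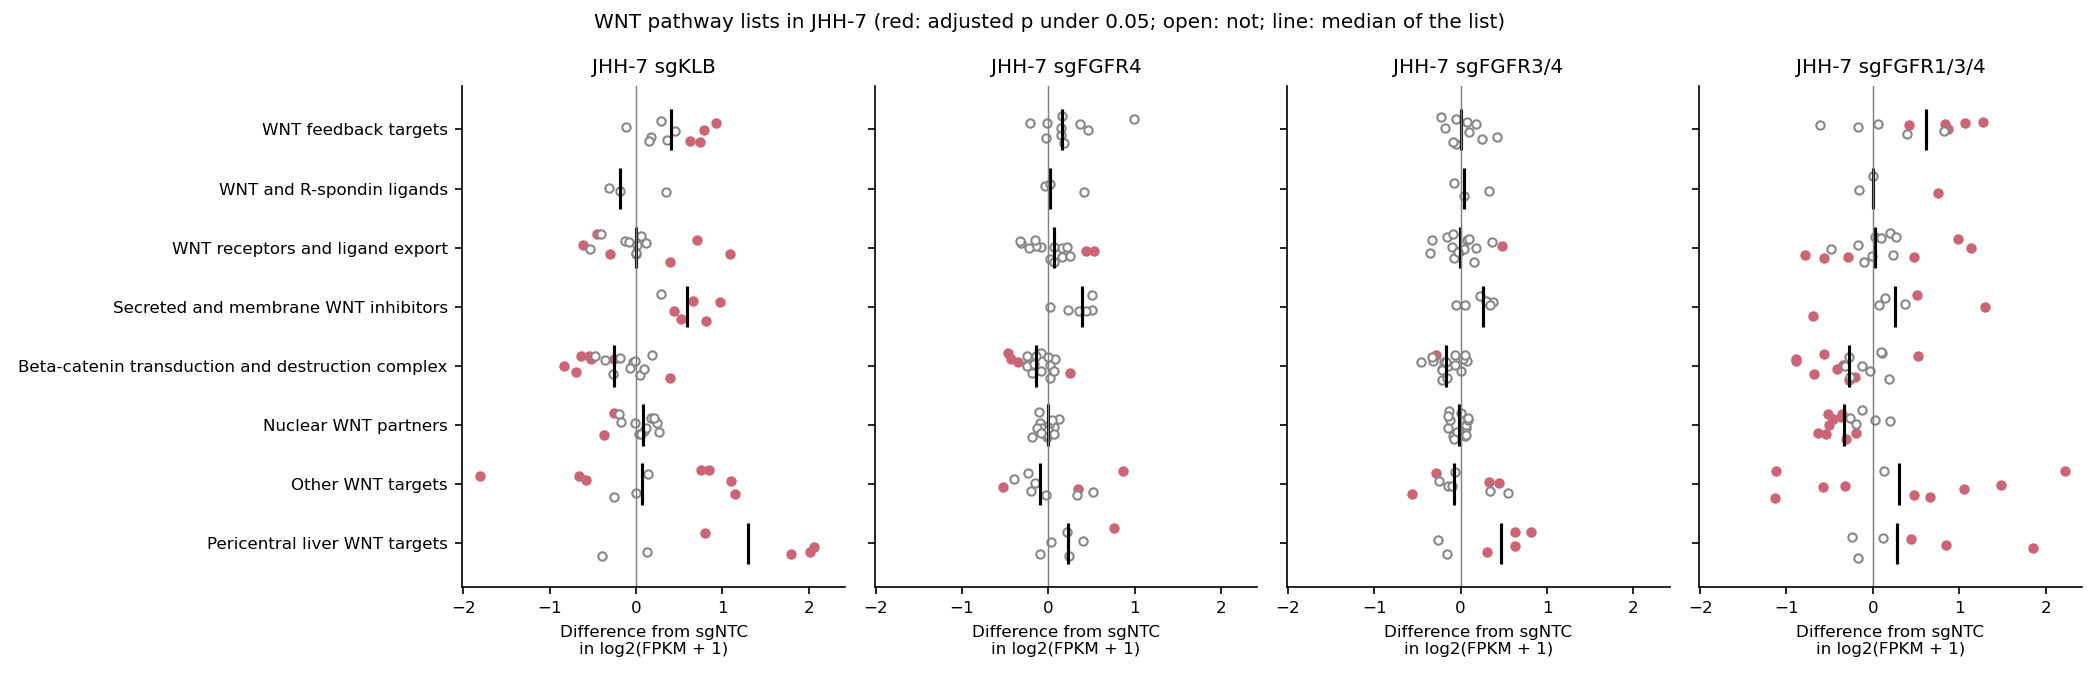
Change against sgNTC on the log2(FPKM + 1) scale (horizontal axis) of each gene of the 10 feedback targets and the 7 other pathway lists (rows) in the 4 JHH-7 knockouts (panels); points are genes, red ones passed an adjusted p of 0.05 and short lines are list medians. The median of the pericentral targets lies to the right in sgKLB (1.29), where AHR of that list lies to the left. The median of the feedback targets lies to the right in sgKLB (0.41) and sgFGFR1/3/4 (0.62).

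Targets of the pathway outside the feedback group split. Of 10 tested, 4 rose and 3 fell in JHH-7 sgKLB and 5 rose and 4 fell in sgFGFR1/3/4. TNFRSF19 (TROY), a receptor found with LGR5 in intestinal stem cells, was at 1.72, 1.19 and 2.12 FPKM in sgNTC, 4.82, 4.20 and 5.07 in sgKLB, 4.65, 3.57 and 3.41 in sgFGFR4, 3.03, 2.53 and 3.10 in sgFGFR3/4, and 10.4, 11.5 and 12.1 in sgFGFR1/3/4. Every knockout library lay above the controls, and sgFGFR1/3/4 above all others, as for LGR5. It rose by 1.10 ± 0.150 in sgKLB (adjusted p 5.76e-05), 0.87 in sgFGFR4 (0.00582) and 2.22 ± 0.150 in sgFGFR1/3/4 (1.14e-07), the call in sgFGFR4 being lost with the 2 groups alone (0.0934). ID2, an inhibitor of helix-loop-helix factors, rose by 1.14 (1.54e-07) in sgKLB and 1.06 (4.42e-07) in sgFGFR1/3/4.

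MYC, a growth-promoting factor that is a WNT target in gut epithelium, fell in all 4 JHH-7 knockouts. It was at 168, 149 and 174 FPKM in JHH-7 sgNTC, 45.5, 47.8 and 43.9 in sgKLB, 111, 114 and 116 in sgFGFR4, 119, 107 and 105 in sgFGFR3/4, and 81.3, 75.7 and 66.4 in sgFGFR1/3/4. All knockout libraries lay below all controls. The log2 change of MYC was -1.81 ± 0.082 with KLB loss (adjusted p 1.06e-09) and -1.12 ± 0.082 with triple loss (2.02e-07). With FGFR4 and FGFR3/4 loss it was -0.52 (0.00368) and -0.56 (0.00172). NKD2, the relative of NKD1, fell by 0.66 (0.00485) in sgKLB and by 1.13 (6.88e-05) in sgFGFR1/3/4, and SOX9, a progenitor factor that is also among the cholangiocyte markers, fell by 0.58 (1.02e-05) in sgKLB.

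The pericentral targets, the hepatocyte program that WNT sets in normal liver, rose in JHH-7 wherever they were called. Their counts are set against the shares of all genes called in either direction. These shares were 31.9% with KLB loss, 4.25% with FGFR4 loss, 3.53% with FGFR3/4 loss and 39.8% with triple loss. Of 6 tested of 10 listed, 4 rose in sgKLB, 1 in sgFGFR4, 4 in sgFGFR3/4, 3 in sgFGFR1/3/4, with list medians of 1.29, 0.23, 0.47 and 0.28. The program did not rise as a whole. AHR, at -0.40 (adjusted p 0.0513), and CYP2E1, at 0.13 (0.665), were not called in sgKLB. In sgFGFR3/4 they were at -0.16 (0.66) and -0.26 (0.579). OAT, which breaks down ornithine, was at 72.3, 58.5 and 79.5 FPKM in sgNTC, 317, 260 and 303 in sgKLB, 138, 118 and 102 in sgFGFR4, 97.5, 110 and 118 in sgFGFR3/4, and 249.8, 253 and 258 in sgFGFR1/3/4. All knockout libraries lay above the controls. It rose by 2.06 ± 0.121 in sgKLB (adjusted p 1.63e-08), 0.76 in sgFGFR4 (0.00368), 0.63 in sgFGFR3/4 (0.011) and 1.85 ± 0.121 in sgFGFR1/3/4 (8.28e-08). The OAT calls in sgFGFR4 (0.0712) and sgFGFR3/4 (0.0867) were lost with the 2 groups alone, the latter also without sgFGFR3/4 library 3 (0.0557).

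RHBG, an ammonium transporter, and GLUL, glutamine synthetase, the classic pericentral marker, ranked the knockouts otherwise. RHBG was at 2.88, 2.18 and 2.95 FPKM in sgNTC, 12.4, 15.7 and 13.3 in sgKLB and 4.94, 5.54 and 6.40 in sgFGFR1/3/4. GLUL was at 295, 296 and 288 FPKM in sgNTC, 545, 515 and 472 in sgKLB and 309, 317 and 330 in sgFGFR1/3/4. For both genes sgKLB held the highest JHH-7 libraries. RHBG rose by 2.01 ± 0.146 in sgKLB (adjusted p 1.26e-07), 0.81 in sgFGFR3/4 (0.00684) and 0.85 ± 0.146 in sgFGFR1/3/4 (0.000376); GLUL rose by 0.80 ± 0.068 in sgKLB (5.87e-07) and was not called in sgFGFR1/3/4. CYP27A1, a sterol hydroxylase of bile acid synthesis, rose by 1.79 ± 0.142 in sgKLB (2.83e-07). In sgFGFR3/4 the call of RHBG was lost with the 2 groups alone (0.117), that of CYP27A1 without sgNTC library 2 or 3 or sgFGFR3/4 library 1 or 3 (up to 0.0891), and that of GLUL without any 1 of the sgNTC libraries or sgFGFR3/4 library 1 (up to 0.0841). In sgFGFR1/3/4 that of CYP27A1 was lost without sgNTC library 3 (0.109) or sgFGFR1/3/4 library 2 (0.0738) or 3 (0.0668). In HuH-7, where AXIN2 was not called, CYP27A1 averaged 16.9 ± 0.468 FPKM in sgNTC and 38.1 ± 2.71 in sgKLB (SD, n = 3), a rise (1.12 ± 0.079, adjusted p 3.87e-06) and GLUL rose from 249 ± 11.2 to 346 ± 12.2 (0.47 ± 0.061, adjusted p 0.000278). In both lines the summed hepatocyte lineage markers were highest in sgKLB as well, at 8940 to 9900 FPKM against 5840 to 6310 in HuH-7 sgNTC, and their part in these values was not tested.

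**Figure D4:**
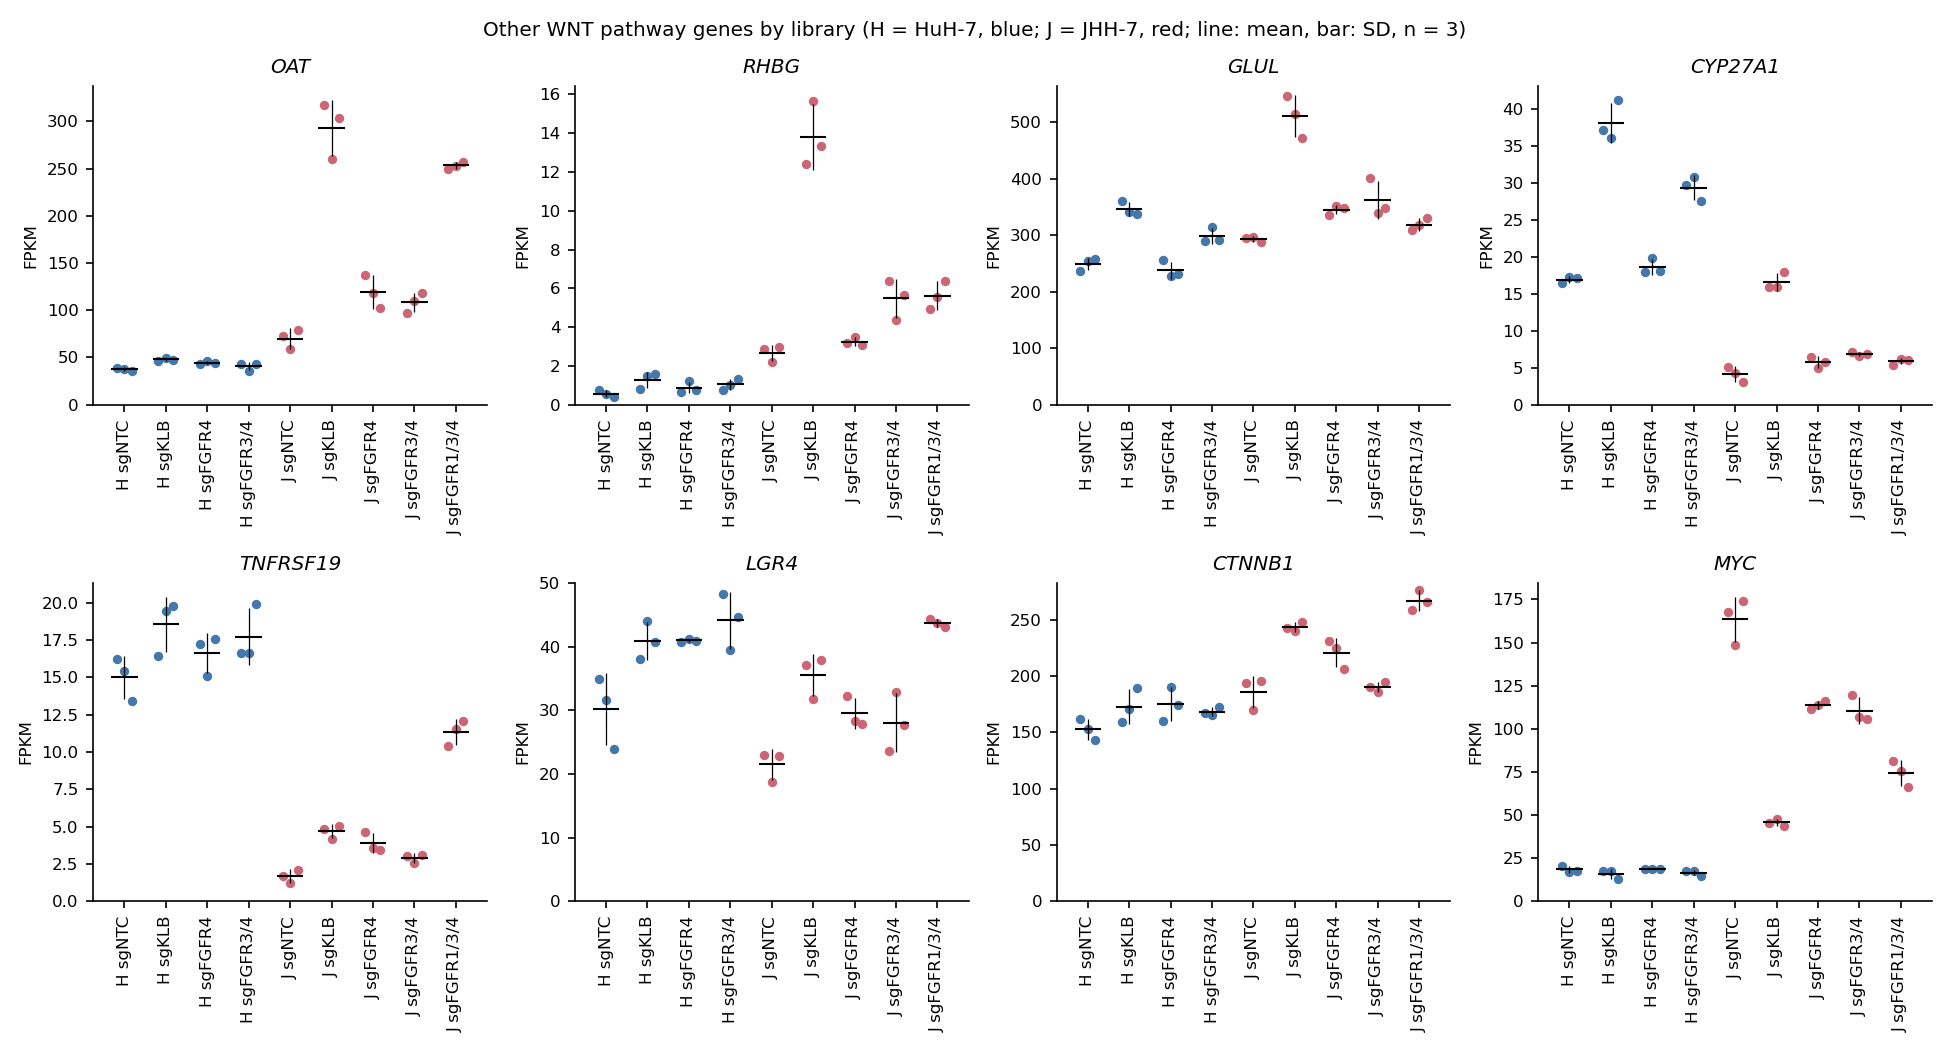
FPKM (vertical axis, linear, from 0, a scale of its own per gene) of 8 other pathway genes in every library of the 9 groups; points are libraries and black lines are group means (n = 3). OAT, TNFRSF19 and LGR4 of JHH-7 are high in sgKLB and sgFGFR1/3/4, RHBG and GLUL mostly in sgKLB, and MYC is lowest in sgKLB with 43.9 to 47.8 FPKM.

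In HuH-7 sgKLB, 14 of 67 genes of the 7 lists were called, against 17.6% of all genes. There, 2 of 15 receptor genes (FZD5 and LGR4, the latter lost without sgNTC library 3 or sgKLB library 2 or 3, at adjusted p up to 0.0928), 1 of 4 ligand genes and 3 of 5 pericentral genes rose, and 3 of 9 other targets fell: BMP4, a growth factor, by 0.60 (adjusted p 0.000274), SOX9 by 0.53 (0.000154) and CCND1, cyclin D1, by 0.49 (0.00701). In JHH-7 sgKLB, BMP4 was called higher instead, at 0.75 (adjusted p 0.00996). SOX9 was lower there as well, at -0.58 (1.02e-05), and CCND1 was not called, at -0.00. WNT5B, a WNT ligand, rose by 1.35 ± 0.232 (0.00185) in HuH-7 sgKLB. In HuH-7 sgFGFR3/4, 13 of 67 were called, against 16.1% of all genes, with CYP27A1 rising by 0.76 (0.000161) and GLUL by 0.26 (0.0157, or 0.0587 with the 2 groups alone). In HuH-7 sgFGFR4, where 3.71% of all genes were called, 0 of 67 were called in limma. Of the 67, 17 were at an unadjusted p below 0.05.

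Markers of other cell types were summed in the same JHH-7 libraries. Summed over 6 cholangiocyte markers, FPKM was 52.2 to 55.9 in sgNTC, 33.6 to 37.5 in sgKLB and 43.2 to 46.9 in sgFGFR1/3/4. For 6 stromal markers it was 5.46 to 6.39, 9.97 to 10.9 and 8.28 to 10.2, for 5 endothelial markers 9.23 to 15.7, 12.3 to 15.2 and 12 to 13.8, and for 6 immune markers 43.2 to 61.8, 50.5 to 65 and 32.2 to 35.9. The stromal sum was thus higher in both knockouts, the cholangiocyte sum lower in both and the immune sum lower in sgFGFR1/3/4. Only 1 of the 6 cholangiocyte markers reached 1 FPKM in all sgNTC libraries, and 1 in all sgKLB libraries. Of those tested in sgKLB, SOX9 was called lower (-0.58). CFTR, at -0.03, and SCTR, at -0.89 (adjusted p 0.0548), were not called. COL1A1, a stromal marker, was at 1.52, 3.39 and 2.40 FPKM in sgNTC and 6.40, 6.41 and 6.12 in sgKLB, where it rose by 1.13 (adjusted p 0.0111). The stromal markers PDGFRB, at 0.31 (0.541), and LUM, at -0.10 (0.821), were not called there. Other markers were near 0 in these groups, with KRT7 and PTPRC at no more than 0.43 and 0.45 FPKM, COL3A1 at no more than 0.2, VWF at no more than 0.09 and CD3E at no more than 0.07. PECAM1 and CD68 alone made up most of the endothelial and immune sums. Their part in the results was not tested.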

How the data were processed

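RSEM and GRCh38 are named in the submitters' processing notes, with no version; the sources used here give no aligner and no strand setting. The values the authors deposited are FPKM for 58735 genes in 27 libraries, a unit read from the values, whose columns sum to between 723416 and 822978. Depth was estimated from the steps between low FPKM values, of which 90.7% to 94.3% lay within 0.1 of a whole fragment, so no counting intervals are given.

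From these values log2(FPKM + 1) was computed, and genes with at least 1 FPKM in at least 3 libraries of a line were kept, 14716 in HuH-7, 14987 in JHH-7 and 16731 in fits over both lines. Group means were fitted with limma 3.58.1 in R 4.3.3, using its trend and robust options (statmod 1.5.0), over all libraries of a line, and contrasts were tested two-sided with Benjamini-Hochberg adjustment over all genes kept. Differences between lines came from a fit over the 27 libraries. The code was tested on simulated data.

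Alternatives were a pseudocount of 0.1, no filter, scaling to TPM, quantile normalization, a correction for length and GC content (mgcv 1.9.3), a replicate block, the 2 groups alone and each library left out. The same replicate numbers did not pair the samples: deviations of same-numbered libraries correlated at -0.206 to 0.084 in HuH-7 and -0.189 to 0.053 in JHH-7.

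The members and the lists were chosen with earlier results of these data known. All members are named. Of each pathway list up to 4 genes called in a direction, those with the smallest p, could be named per comparison. SKP1, SUPT4H1, AC004687.2, AHR and CYP2E1 were chosen after their values were seen. Gene positions are from GENCODE 29, in which all IDs were found.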

Additional observations from a re-analysis of the deposited data

Results flagged for a closer look

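The effect of sgKLB differed between the lines for 3 of the feedback genes by the test of the difference itself in the fit over both lines. The JHH-7 change exceeded the HuH-7 change by 1.05 on the log2(FPKM + 1) scale for AXIN2, by 0.76 for TCF7 and by 1.81 for SP5. With each library left out in turn the difference was 0.96 to 1.11 for AXIN2, 0.60 to 0.89 for TCF7 and 1.27 to 2.12 for SP5. SP5 in HuH-7 sgNTC had 1 library at 53.6 FPKM beside 17.9 and 15.9, and without that library the SP5 difference was 1.27 (adjusted p 0.0269).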

How the results depend on the processing

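Of 1307 alternative values for 94 pairs of a feedback gene and a comparison, 1236 kept direction and side of the threshold, 34 lost a call, 37 gained one and 0 turned sign. The calls of AXIN2, TCF7, SP5 and TBX3 in JHH-7 sgKLB and of AXIN2, LGR5, SP5 and TBX3 in sgFGFR1/3/4 against sgNTC held under every alternative run. With the length and GC correction the number of the 10 genes called became 8 in place of 5 for sgFGFR1/3/4 against sgNTC, 8 in place of 4 against sgFGFR3/4, and 3 in place of 1 for sgKLB against sgFGFR1/3/4, which was also 3 with the 2 groups alone; the cause was not tested. Leaving out single libraries gave 4 to 5 calls in JHH-7 sgKLB, 0 to 1 in sgFGFR4 and 4 to 6 in sgFGFR1/3/4. It gave 3 to 4 for sgFGFR1/3/4 against sgFGFR3/4, 1 to 2 for sgKLB against sgFGFR1/3/4, and 2 to 4 for sgKLB against sgFGFR4 and against sgFGFR3/4. For the line differences it gave 3 to 4 for sgKLB and 0 to 1 for sgFGFR4 and for sgFGFR3/4, the 1 for sgFGFR4 being NKD1. Between the control cells there were 6 to 8, with NKD1 and LEF1 counted. Both genes passed the filter through JHH-7 alone, so their part of these counts is a description. The replicate block left 4 calls in JHH-7 sgKLB and 5 in sgFGFR1/3/4, as without it, and lost AXIN2 for sgKLB against sgFGFR3/4 (adjusted p 0.0597) and RNF43 between the control cells (0.305). Of 1534 alternative values for 118 called pairs of another pathway gene and a comparison, 231 lost the call and 0 turned sign. Genes near 1 FPKM, such as NOTUM, limit what these libraries can show.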

Other observations

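Across the 15 JHH-7 libraries, the gene whose log2(FPKM + 1) was most like that of AXIN2, among 8721 genes ranked, was CLDN6, a tight junction protein of embryonic epithelia, with a Pearson r of 0.959, followed by ZNFX1 (0.930), SEMA3B (0.928), DNAJB1 (0.928) and F2RL1 (0.926). Across the 12 HuH-7 libraries and 8505 genes the list held other names, CISD3 (0.853), RSAD1 (0.810), NOP2 (0.805), SNRNP35 (0.795) and FANCA (0.790). For ZNRF3 the leading genes were AUP1 (0.853) and AK1 (0.838) in JHH-7 and CHMP4A (0.913) and INPP1 (0.897) in HuH-7. The libraries of a group share their knockout, so these values describe the ranking only.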
